A study of Homo sapiens with 24 samples.

Results

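The comparison described here asked whether lowering ETV1 changed how LNCaP cells answered androgen. It is the interaction of knockdown and hormone: the log2 response to dihydrotestosterone (DHT) in ETV1-knockdown cells minus the same response in control cells. All 12 LNCaP arrays of the 24 arrays in the series entered it, 3 in each of 4 groups. LNCaP is an androgen-dependent human prostate cancer line. The groups were LNCaP-shControl-EtOH and LNCaP-shControl-DHT, which received a control hairpin, and LNCaP-shETV1-EtOH and LNCaP-shETV1-DHT, which received a short hairpin RNA against ETV1. All 4 groups began with 24 h of RNA interference and 2 days without hormone, followed by 16 h with ethanol (EtOH, the vehicle) or 10 nM DHT. The hairpins were transfected, and the labels name no second hairpin and no rescue. One label field calls the LNCaP control siControl where the title says shControl. The arrays are described as biological replicates A, B and C, and n = 3 per group throughout.

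ETV1 is a transcription factor of the ETS family, whose members bind DNA at a GGAA core, and a chromosomal rearrangement keeps it switched on in LNCaP cells. DHT is the potent androgen of the prostate; its signal in the nucleus raises secretory genes such as the kallikrein proteases and lowers another set of genes that are active when hormone is absent. A positive interaction has several shapes: a gene that DHT raises can rise more, a gene that DHT lowers can fall less, and either can come from the level without hormone or from the level with it.

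The array medians ran from 42.7 to 44.8 intensity units, and arrays of 1 group correlated at 0.991 to 0.992 across probe sets. ETV1 itself stood at 1215, 1201 and 1030 in the control EtOH arrays, 769, 714 and 752 in the knockdown EtOH arrays, 1326, 1290 and 1264 in the control DHT arrays and 809, 892 and 803 in the knockdown DHT arrays. Its knockdown was therefore partial and of like size in both conditions: the level was 35.1% lower with EtOH and 35.5% lower with DHT, and the interaction of ETV1 was -0.01 ± 0.10 (log2 ± SE, adjusted p = 0.993, 95% interval -0.22 to 0.20). Of 14 luminal epithelial markers, 11 lay above the array median on all 12 arrays, KRT8 among them at 2346 to 5970. The defining markers KRT5 (basal cells), CHGA and SYP (neuroendocrine cells) stayed at or under 17.7. Above the median on all 12 arrays were 2 of 10 basal markers (ITGA6 at 440 to 691 and DST at 289 to 383), 3 of 17 neuroendocrine markers (DDC at 3950 to 9097, ENO2 at 288 to 499 and DLL3 at 251 to 327), 3 of 12 fibroblast markers, 0 of 10 endothelial and 0 of 12 leukocyte markers. The summed luminal markers ran from 31361 to 33336 in control EtOH, 28202 to 29085 in knockdown EtOH, 55246 to 56006 in control DHT and 45821 to 47489 in knockdown DHT arrays, a sum that includes KLK3. As a measure of RNA quality, the ratio of the 3′ to the 5′ control probe set of ACTB averaged 3.11 in control EtOH, 2.97 in knockdown EtOH, 2.76 in control DHT and 3.07 in knockdown DHT arrays. Its own interaction was 0.22 log2 units (exact permutation test over all 12 arrays, 924 labelings, two-sided p = 0.104), against 0.03 for GAPDH (p = 0.323). The labelings mixed hormone and hairpin groups, so an effect of either alone on the ratio also enters this p. It is therefore no test of the interaction alone, and the part of RNA quality in the results below was not tested.

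Few genes passed. Of 12809 genes tested, 13 had an interaction with an adjusted p below 0.05 in limma (0.101%), 10 of them higher in knockdown cells (0.0781%) and 3 lower (0.0234%). At an unadjusted p below 0.05 there were 964 genes (7.53%), 696 higher (5.43%) and 268 lower (2.09%). The median interaction over all genes was 0.01 log2 units, its 5th and 95th percentiles were -0.22 and 0.27, and 55.2% of genes lay above 0. The median standard error was 0.10, and the smallest interaction that passed was 0.41. That value is no detection limit, since 201 genes had an interaction of at least 0.5 either way and 13 genes passed in all. Differences in hormone response of that size or smaller can therefore have been missed with these arrays. For scale, DHT raised 2383 genes (18.6%) and lowered 2855 (22.3%) in control cells, and raised 2420 (18.9%) and lowered 2439 (19%) in knockdown cells. These counts come from the same arrays as the interaction. Knockdown alone raised 157 genes (1.23%) and lowered 381 (2.97%) with EtOH, and raised 343 (2.68%) and lowered 320 (2.5%) with DHT.

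The 13 genes fell into groups by their hormone response. KLK2, KLK3, CTBP1-AS and GPR158 rose with DHT in both cell states and rose by a larger factor after knockdown. CAMK2N1, KLHL1, ACKR3 and COLEC12 fell with DHT in both states and fell by a smaller factor after knockdown. LOC105376805 fell in control cells, and its change in knockdown cells did not pass; GUSBP4 rose in knockdown cells, and its change in control cells did not pass. ANGPT2, TNFRSF19 and ACAD8 rose in both states and rose by a smaller factor after knockdown.

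**Figure D1:**
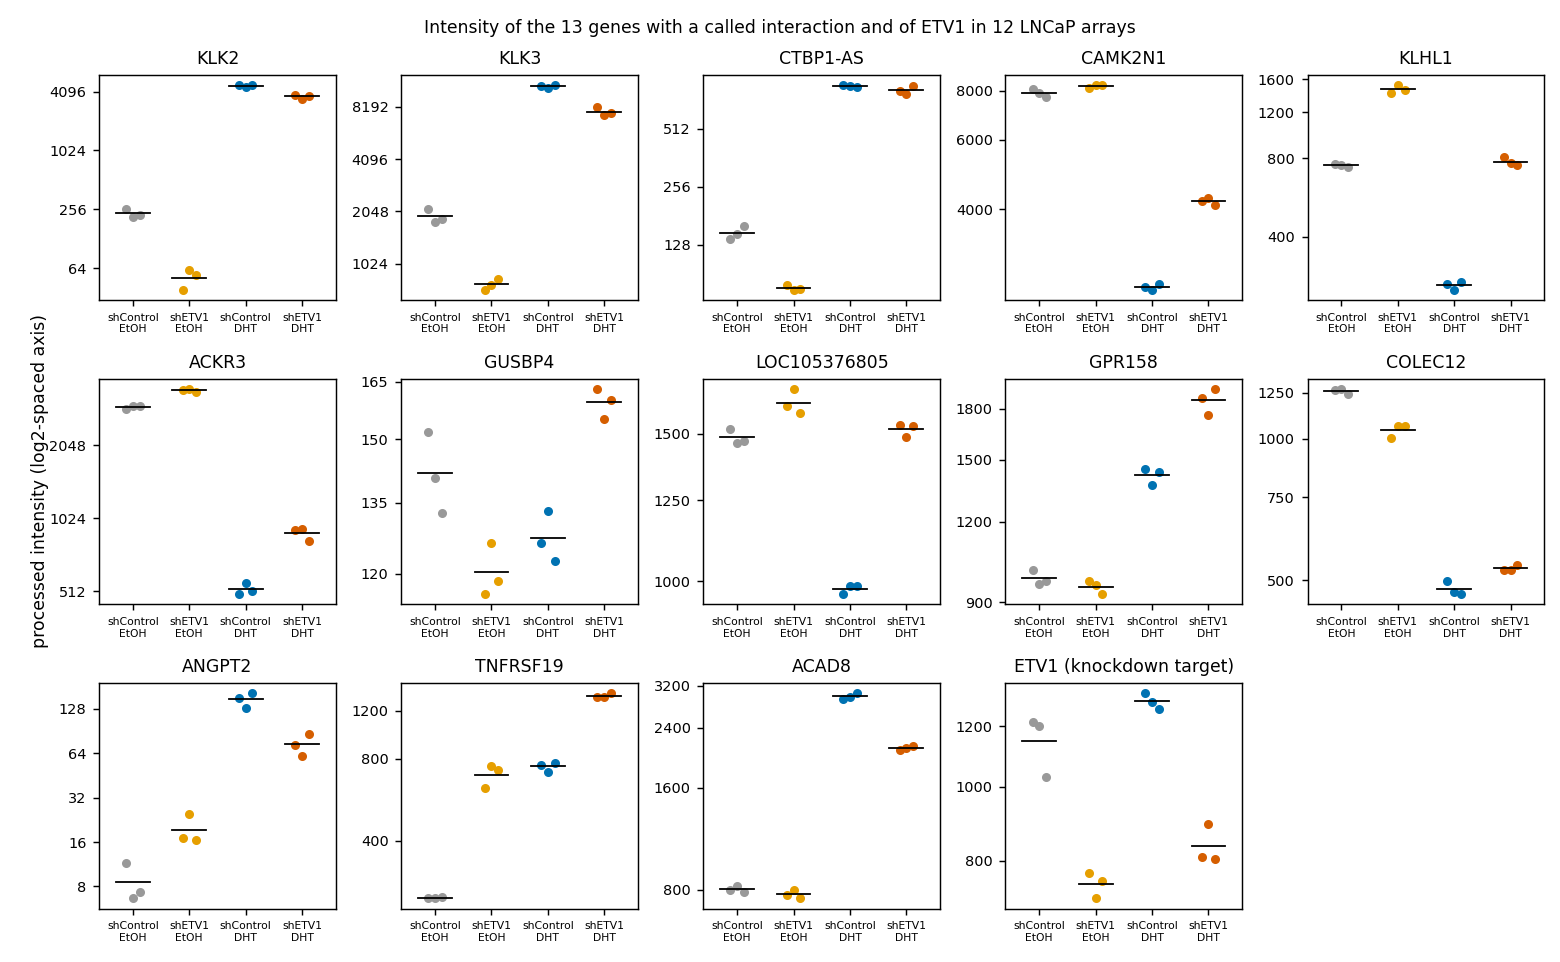
Processed intensity of each of the 13 genes with an adjusted interaction p below 0.05, and of ETV1, on each of 12 LNCaP arrays (points) with the group mean (line), on axes spaced by log2 that differ in range from gene to gene. KLK2, KLK3 and CTBP1-AS differ between hairpins mostly in the EtOH groups; CAMK2N1, GPR158 and ACAD8 differ mostly in the DHT groups.

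KLK2 and KLK3 encode related secreted serine proteases of the prostate, KLK3 being prostate-specific antigen, and lie side by side on chromosome 19. Their promoters are shown because these neighbours moved together and had the largest interactions among the genes that rose more. Each run is the 250 bases before the annotated start in RefSeq on GRCh38.p14, plus strand, chr19:50854665-50854914 for KLK3 and chr19:50873189-50873438 for KLK2, and capitals mark AGAACA (1 arm of an androgen response element) or GGAA (the ETS core) on either strand.
KLK3: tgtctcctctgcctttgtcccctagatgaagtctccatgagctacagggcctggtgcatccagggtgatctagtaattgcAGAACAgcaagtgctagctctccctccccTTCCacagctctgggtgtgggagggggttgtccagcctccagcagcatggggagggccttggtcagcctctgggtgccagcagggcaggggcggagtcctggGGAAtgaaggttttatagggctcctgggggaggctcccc
KLK2: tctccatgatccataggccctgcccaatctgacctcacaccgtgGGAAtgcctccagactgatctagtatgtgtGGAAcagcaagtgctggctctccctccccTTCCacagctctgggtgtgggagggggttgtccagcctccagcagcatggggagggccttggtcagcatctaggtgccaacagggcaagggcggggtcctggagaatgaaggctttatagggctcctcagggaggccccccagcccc
The KLK3 window held AGAACA at 170 to 165 bases before the start and GGAA at 2 places. The KLK2 window held GGAA at 3 places and no AGAACA, and the 2 windows were identical at 207 of 241 aligned bases, or 85.9%. In the alignment, the KLK2 ETS core at 176 to 173 bases before the start began where the androgen arm of KLK3 began. The KLK2 letters there differed from that arm by 1 letter, so its absence from the KLK2 window rests on that letter. A match is a description of letters and no evidence of binding.

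KLK2 had the largest interaction that passed. Its intensities were 258, 215 and 224 in control EtOH arrays, 38.2, 60.6 and 54.7 in knockdown EtOH arrays, 4806, 4590 and 4761 in control DHT arrays and 3818, 3473 and 3673 in knockdown DHT arrays. Knockdown arrays lay below control arrays under both conditions with no overlap, but by far more without hormone: 78.0% of the control level was lost with EtOH and 22.6% with DHT. The DHT response was 4.26 log2 units in control and 5.79 in knockdown cells, 19.1-fold against 55.2-fold on the scale of intensity plus 16. The interaction was 1.53 ± 0.16 (adjusted p = 0.00809, 95% interval 1.18 to 1.88). The knockdown EtOH arrays lay near the array medians, 1 of them below, so the size moved with the offset, from 1.81 with an offset of 1 to 1.003 with 64, and passed with both. Measured as a rise in intensity, the order turned: 4487 units in control and 3603 in knockdown cells, a difference of -883 ± 121. The knockdown effect was -1.90 with EtOH (adjusted p = 6.50e-06) and -0.37 with DHT (adjusted p = 0.0907).

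KLK3 had the same shape at a smaller size. Arrays read 2122, 1784 and 1860 in control EtOH, 724, 769 and 841 in knockdown EtOH, 10707, 10518 and 10951 in control DHT, and 8148, 7321 and 7520 in knockdown DHT. The hairpins did not overlap under either condition, and 40.5% of the control level was left with EtOH against 71.4% with DHT. DHT raised KLK3 5.56-fold in control and 9.68-fold in knockdown cells, an interaction of 0.80 ± 0.10 (adjusted p = 0.0198). In intensity units the rise was 8804 in control and 6885 in knockdown cells, again smaller after knockdown, by -1918 ± 299. The knockdown effect passed under both conditions, at -1.29 with EtOH (adjusted p = 6.28e-06) and -0.49 with DHT (adjusted p = 0.00414).

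Other probe sets of these genes bear on the values. A further KLK3 probe set gave 0.67, and a dimmer one 0.12. For KLK2, a second bright probe set gave 0.58. A KLK2 probe set with EtOH means of 5.75 and 4.24 units, near the bottom of the scale, gave -0.51, and one below the array median on all 12 arrays gave 0.09. Averaging all probe sets left KLK2 at 0.42 and KLK3 at 0.53, and neither passed in that setting (adjusted p = 0.0691 for KLK2 and 0.0674 for KLK3). The probe sets used for both genes end in _s_at, which marks designs that may bind related transcripts, and how far KLK2 and KLK3 probes share signal was not tested.

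CTBP1-AS, an antisense transcript at the CTBP1 locus, read 137, 147 and 160 in control EtOH, 79.4, 74.7 and 75.5 in knockdown EtOH, 869, 860 and 844 in control DHT, and 807, 781 and 860 in knockdown DHT arrays. Knockdown cut the EtOH level to 51.7% of control with no overlap between arrays, while the DHT arrays overlapped at 95.2% of control. The response was 5.34-fold in control and 8.99-fold in knockdown cells (interaction 0.75 ± 0.08, adjusted p = 0.00809). In intensity units both rises were alike within error, 709.7 and 739.5, a difference of 29.8 ± 25.5.

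KLK4, another kallikrein of the same cluster singled out after its values were seen, did not pass. It read 427, 464 and 448 in control EtOH, 286, 312 and 297 in knockdown EtOH, 1315, 1164 and 1264 in control DHT and 1278, 1113 and 1341 in knockdown DHT arrays. The EtOH arrays did not overlap and the DHT arrays did, with an interaction of 0.55 ± 0.10 (adjusted p = 0.0978). TMPRSS2, a membrane serine protease induced by androgen, gave 0.17 ± 0.08 (adjusted p = 0.661) on responses of 3.04 in control and 3.20 in knockdown cells; as a rise in intensity the order turned, with a difference of -696 ± 173. FKBP5, a co-chaperone of steroid receptors and a standard androgen target, gave -0.00 ± 0.10 (adjusted p = 0.997, 95% interval -0.21 to 0.21), with 3.52 in both states. In intensity units FKBP5 rose by 9577 in control and 8512 in knockdown cells, a difference of -1065 ± 224. MYC gave 0.06 ± 0.12 (adjusted p = 0.951). ERG was too low to test, at 5.99 to 13.4 units on all arrays.

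CAMK2N1, an inhibitor of the calcium/calmodulin-dependent kinase CaMKII, had the smallest p of all genes. Its arrays read 8064, 7886 and 7713 in control EtOH, 8147, 8272 and 8281 in knockdown EtOH, 2542, 2495 and 2579 in control DHT, and 4194, 4266 and 4099 in knockdown DHT. Without hormone the knockdown arrays stood just above the control arrays, by 0.06 log2 units (adjusted p = 0.403), and with DHT every knockdown array lay above every control array. DHT lowered CAMK2N1 3.09-fold in control and 1.96-fold in knockdown cells, an interaction of 0.66 ± 0.05 (adjusted p = 0.00102). All 3 probe sets of the gene gave 0.65 to 0.66. The fall in intensity was also smaller, -4047 against -5349, a difference of 1302 ± 123.

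KLHL1, a kelch-like protein that binds actin, read 762, 752 and 740 in control EtOH, 1415, 1527 and 1459 in knockdown EtOH, 263, 250 and 269 in control DHT, and 809, 768 and 751 in knockdown DHT arrays. Knockdown arrays lay above control arrays under both conditions, at 195% of control with EtOH and 297% with DHT. DHT lowered it 2.77-fold in control and 1.87-fold in knockdown cells (interaction 0.57 ± 0.06, adjusted p = 0.00907). A dimmer probe set, above the array median on 1 of 12 arrays, gave -0.29 ± 0.39, and the average of both gave 0.14 (adjusted p = 0.922). The gene passed in 10 of 15 other settings; in the fit of both lines its standard error was 0.57 (adjusted p = 0.981). The fall in intensity was larger after knockdown, -690.8 against -490.8, so the sign depends on the scale.

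ACKR3, an atypical chemokine receptor that binds CXCL12, read 2884, 2969 and 2977 in control EtOH, 3446, 3488 and 3387 in knockdown EtOH, 498, 555 and 513 in control DHT, and 917, 921 and 823 in knockdown DHT arrays. The hairpins did not overlap under either condition, and the gap on the log scale was wider with DHT. DHT lowered ACKR3 5.50-fold in control and 3.83-fold in knockdown cells (interaction 0.52 ± 0.08, adjusted p = 0.0420). Its intensity fell by -2421 in control and -2553 in knockdown cells, which turns the sign, and the other probe sets gave 0.01 and -0.03.

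COLEC12, a scavenger receptor of the collectin family, read 1269, 1274 and 1246 in control EtOH, 1005, 1061 and 1064 in knockdown EtOH, 499, 472 and 468 in control DHT, and 527, 526 and 538 in knockdown DHT arrays. Knockdown arrays were below control arrays with EtOH and above them with DHT. Its fall with DHT was 2.58-fold in control and 1.94-fold in knockdown cells (interaction 0.41 ± 0.06, adjusted p = 0.0259). The noncoding RNA LOC105376805, whose probe set ends in _x_at and may bind related transcripts, read 1522, 1463 and 1472 in control EtOH, 1621, 1697 and 1588 in knockdown EtOH, 965, 986 and 987 in control DHT, and 1538, 1487 and 1531 in knockdown DHT arrays. Only the control DHT arrays were low, and the response went from -0.59 to -0.11 (interaction 0.49 ± 0.05, adjusted p = 0.00907).

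GPR158, a class C receptor related to the metabotropic glutamate receptors, read 1010, 962 and 970 in control EtOH, 971, 957 and 927 in knockdown EtOH, 1452, 1368 and 1438 in control DHT, and 1873, 1762 and 1932 in knockdown DHT arrays. The EtOH groups overlapped and the DHT groups did not. DHT raised it 1.44-fold in control and 1.93-fold in knockdown cells (interaction 0.43 ± 0.06, adjusted p = 0.0491). GUSBP4, a pseudogene of the beta-glucuronidase gene whose probes may bind related copies, read 152, 141 and 132.7 in control EtOH, 116, 126 and 119 in knockdown EtOH, 126, 133.1 and 123 in control DHT, and 163, 155 and 160 in knockdown DHT arrays. Hairpin order was opposite in the EtOH and DHT arrays, and the response went from -0.14 to 0.36 (interaction 0.50 ± 0.07, adjusted p = 0.0482). A second probe set, above the array median on 6 of 12 arrays, gave 0.03 ± 0.15 with knockdown means above control means under both conditions, and the average of both gave 0.27.

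ACAD8, a mitochondrial acyl-CoA dehydrogenase of valine breakdown, was the gene with the smallest p among those that rose less. Its arrays read 799, 820 and 785 in control EtOH, 772, 799 and 754 in knockdown EtOH, 2928, 2958 and 3041 in control DHT, and 2060, 2093 and 2120 in knockdown DHT. The EtOH groups overlapped, and with DHT every knockdown array lay below every control array. DHT raised it 3.66-fold in control and 2.66-fold in knockdown cells (interaction -0.46 ± 0.05, adjusted p = 0.00965). The rise in intensity was also smaller, 1316 against 2174 units.

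ANGPT2, a ligand of the endothelial TIE2 receptor, had the most negative interaction, -1.40 ± 0.18 (adjusted p = 0.0192). It read 11.6, 6.65 and 7.37 in control EtOH, 16.9, 24.6 and 16.6 in knockdown EtOH, 151, 130 and 163 in control DHT, and 73.2, 61.0 and 86.2 in knockdown DHT arrays. The order of the hairpins turned: knockdown arrays were above control arrays with EtOH and below them with DHT, with no overlap. All 6 EtOH arrays lay below the array median, so the size rests on dim values and moved with the offset added before the logarithm, from -2.11 with an offset of 1 to -0.83 with 64. All 4 probe sets gave a negative value, from -1.40 to -0.39. Of 10 endothelial markers, 0 lay above the array median on all 12 arrays. PECAM1 read 31.8 to 58.9 units and VWF 35.9 to 146, with VWF at 95.3 to 146 in the EtOH arrays.

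TNFRSF19, a receptor of the tumour necrosis factor family, read 246, 245 and 248 in control EtOH, 624, 752 and 726 in knockdown EtOH, 762, 714 and 773 in control DHT, and 1354, 1354 and 1396 in knockdown DHT arrays. Knockdown arrays lay above control arrays under both conditions, at 284% of control with EtOH and 182% with DHT. DHT raised it 2.92-fold in control and 1.94-fold in knockdown cells (interaction -0.59 ± 0.09, adjusted p = 0.0482). In intensity units the rise was larger after knockdown, 667.5 against 503.3, and both dimmer probe sets gave positive values, 0.35 and 0.17.

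The 7 genes next by p among those with a negative interaction did not pass. ELFN1 (-0.86 ± 0.14, adjusted p = 0.0611), RANBP3L (-0.78, adjusted p = 0.0755) and PROSER2-AS1 (-0.82, adjusted p = 0.0755) had a positive response in control and a negative one in knockdown cells: 0.49 and -0.36 for ELFN1, 0.48 and -0.30 for RANBP3L, and 0.53 and -0.28 for PROSER2-AS1. All 3 were dim, at most 97.8 units on any array. SLC39A10, a zinc importer, gave -0.32 (adjusted p = 0.0804), with EtOH arrays that read 814 to 857 in control and 818 to 856 in knockdown cells and DHT arrays of 2534 to 2561 and 1998 to 2118. ACSF3, a mitochondrial malonyl-CoA synthetase, gave -0.51 (adjusted p = 0.0755), GCG, the glucagon gene, -0.52 (adjusted p = 0.0762), and CITED2, a transcriptional coregulator, -0.36 (adjusted p = 0.0825).

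**Figure D2:**
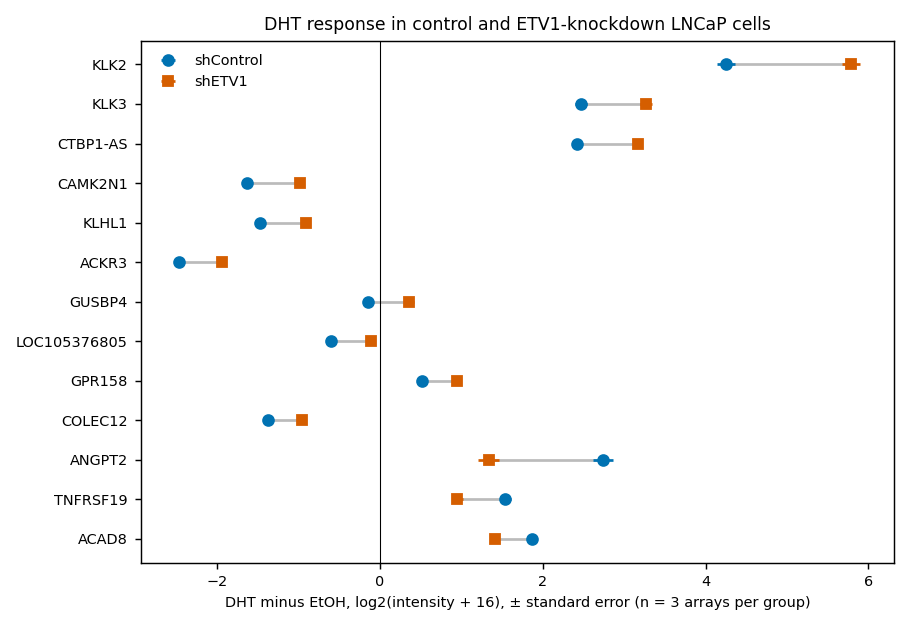
DHT response (DHT minus EtOH, log2 of intensity plus 16, ± standard error, n = 3 arrays per group) of the 13 genes in control cells (circles) and ETV1-knockdown cells (squares); the gap between the symbols is the interaction. The gap runs to the right for 10 genes, most for KLK2 (4.26 to 5.79), and to the left for ANGPT2 (2.74 to 1.34), TNFRSF19 and ACAD8.

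Where the hairpins differed was not the same for all 13 genes. The knockdown effect with EtOH passed for 8 genes and the effect with DHT for 10. For CAMK2N1, ACAD8, GPR158, GUSBP4 and LOC105376805 it passed with DHT and not with EtOH, at 0.72, -0.51, 0.38, 0.29 and 0.62 against 0.06, -0.05, -0.04, -0.21 and 0.14. For KLK2, CTBP1-AS and COLEC12 it passed with EtOH and not with DHT, the values for COLEC12 being -0.27 and 0.14. The interaction is itself the test of these differences.

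Calls differed in how they held when arrays were left out 1 at a time. KLK2, CTBP1-AS, CAMK2N1, KLHL1, LOC105376805 and ACAD8 passed in 12 of 12 such fits. KLK3 passed in 6 and was lost without shETV1 EtOH A or B, without any control DHT array, or without shETV1 DHT A, with adjusted p up to 0.0803. ANGPT2 passed in 7 and was lost without shControl EtOH B or C, shControl DHT A or C, or shETV1 DHT A, with adjusted p up to 0.0685. The remaining 5 were marginal: ACKR3 passed only without shControl DHT B or shETV1 DHT C (adjusted p up to 0.125 otherwise), GUSBP4 only without shControl EtOH C (up to 0.131), GPR158 only without shETV1 DHT B (up to 0.145), COLEC12 only without shControl DHT A (up to 0.0889) and TNFRSF19 only without shETV1 EtOH A (up to 0.131). The number of genes that passed ran from 7 to 12, and was 7 or 8 without any array other than shControl EtOH C, shETV1 DHT B or shETV1 DHT C. CAMK2N1 alone also passed in each of 15 other settings, among them the ACTB ratio as a covariate, under which it was the 1 gene that passed, and the GAPDH ratio, under which 4 genes passed.

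Androgen-induced genes as a group had nearly the same response after knockdown. Of 43 genes listed, 37 were tested, of which DHT raised 35 in control and 35 in knockdown cells, with median responses of 2.10 and 2.12, and 2 members passed for the interaction, KLK2 and KLK3, both higher. The median interaction was 0.05, with 23 above and 14 below 0, beside 0.01 over all genes. At an unadjusted p below 0.05 there were 7 higher and 3 lower members. Of the list, 62.2% lay above 0, 27.0% had such a p and 5.41% passed, against 55.2%, 7.53% and 0.101% of all genes tested. SGK1, a kinase that acts on ion channels, gave 0.40 ± 0.09 (adjusted p = 0.193) and PMEPA1, an inhibitor of TGF-beta signalling, 0.29 ± 0.08. On the negative side were STEAP4, a metalloreductase, at -0.43 ± 0.12 and NCAPD3, a condensin subunit, at -0.27 ± 0.07, and neither passed.

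Androgen-repressed genes leaned to a weaker fall. Of 27 genes listed, 18 were tested, and DHT lowered 12 and raised 3 of them in control and likewise in knockdown cells. The median response was -0.99 in control and -0.86 in knockdown cells. CAMK2N1 and ACKR3 passed, both higher. Of the list, 77.8% lay above 0, 50% had an unadjusted p below 0.05 and 11.1% passed, against 55.2%, 7.53% and 0.101% of all genes tested. The median interaction was 0.26, with 14 above and 4 below 0, and 8 higher and 1 lower at an unadjusted p below 0.05. That median depended on the settings: it was 0.083 with no intensity filter and also without _x_at and _s_at probe sets, where UBE2C was the middle gene in both, 0.097 with an offset of 64 and 0.16 with probe sets averaged. Members that did not pass included OPRK1, the kappa opioid receptor, at 0.53 ± 0.11 (adjusted p = 0.163) with responses of -4.00 and -3.47, BCHE, butyrylcholinesterase, at 0.34 ± 0.08 with -1.92 and -1.58, and LRRN1, a leucine-rich repeat membrane protein, at 0.32 ± 0.08 with -2.43 and -2.11. These lie above 0, while the 4 members below 0 went as low as -0.48, and none of those passed. DDC, the enzyme that makes dopamine and serotonin and also a neuroendocrine marker, gave 0.24 ± 0.06 (adjusted p = 0.221), and its arrays read 7717 to 7805, 8737 to 9097, 3950 to 4253 and 5478 to 5781 in the order control EtOH, knockdown EtOH, control DHT, knockdown DHT. UGT2B15 and UGT2B17, which attach glucuronic acid to androgens, gave 0.31 ± 0.09 and 0.27 ± 0.08 without passing, and their probe sets may bind both. In the androgen metabolism list 0 of 21 members passed, with a median of 0.07.

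DNA replication genes had interactions mostly above 0 and none that passed. Of 35 members 31 lay above 0 (88.6%, against 55.2% of all genes tested), with a median of 0.14. At an unadjusted p below 0.05, 10 members were higher and 0 lower (28.6%, against 7.53% of all genes tested). Their median DHT response was -0.00 in control and 0.15 in knockdown cells, and DHT raised 6 and lowered 5 members in control cells and raised 12 and lowered 1 in knockdown cells. UHRF1, which recognises hemimethylated DNA, gave 0.37 ± 0.09 (adjusted p = 0.259), with arrays of 342, 319 and 340 in control EtOH, 357, 320 and 342 in knockdown EtOH, 388, 343 and 388 in control DHT, and 493, 462 and 530 in knockdown DHT. The knockdown DHT arrays stood above all others for this gene. MCM10, which helps start replication forks, gave 0.40 ± 0.12, DTL, an adaptor of the ubiquitin ligase that clears licensing factors, 0.42 ± 0.13, and CCNE2, a cyclin of S phase entry, 0.33 ± 0.09. Mitosis genes had a lower median of 0.04, with 26 of 35 above 0 (74.3%, against 55.2% of all genes tested) and 0 passing. At an unadjusted p below 0.05, 2 were higher and 0 lower (5.71%, against 7.53% of all genes tested). PLK1, a mitotic kinase, gave 0.54 ± 0.14 (adjusted p = 0.301). Ribosome biogenesis genes had a median of 0.07 with 16 of 24 above 0 (66.7%) and 0 passing, and 25% had an unadjusted p below 0.05.

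Unfolded protein response and cholesterol synthesis genes, of which DHT raised 17 of 24 and 13 of 18 in control cells, had interactions mostly just below 0. Of 24 unfolded protein response genes 3 lay above and 21 below 0, so 12.5% lay above 0 against 55.2% of all genes tested. Their median was -0.06 with 0 passing, and the median DHT response was 0.43 in control and 0.38 in knockdown cells. SDF2L1, an endoplasmic reticulum chaperone partner, gave -0.23 ± 0.09 (adjusted p = 0.567). Cholesterol synthesis genes had 3 of 18 above 0 and a median of -0.04, and fatty acid synthesis genes 10 of 20 and a median of -0.00, with 0 passing in either list. FASN, fatty acid synthase, gave -0.28 ± 0.08 (adjusted p = 0.378). Amino acid response genes had 4 of 26 above 0 and a median of -0.06, with 0 passing. Centring each array on its median moved the median of all genes from 0.01 to -0.02, and turned the median of the mitosis list to -0.0032.

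**Figure D3:**
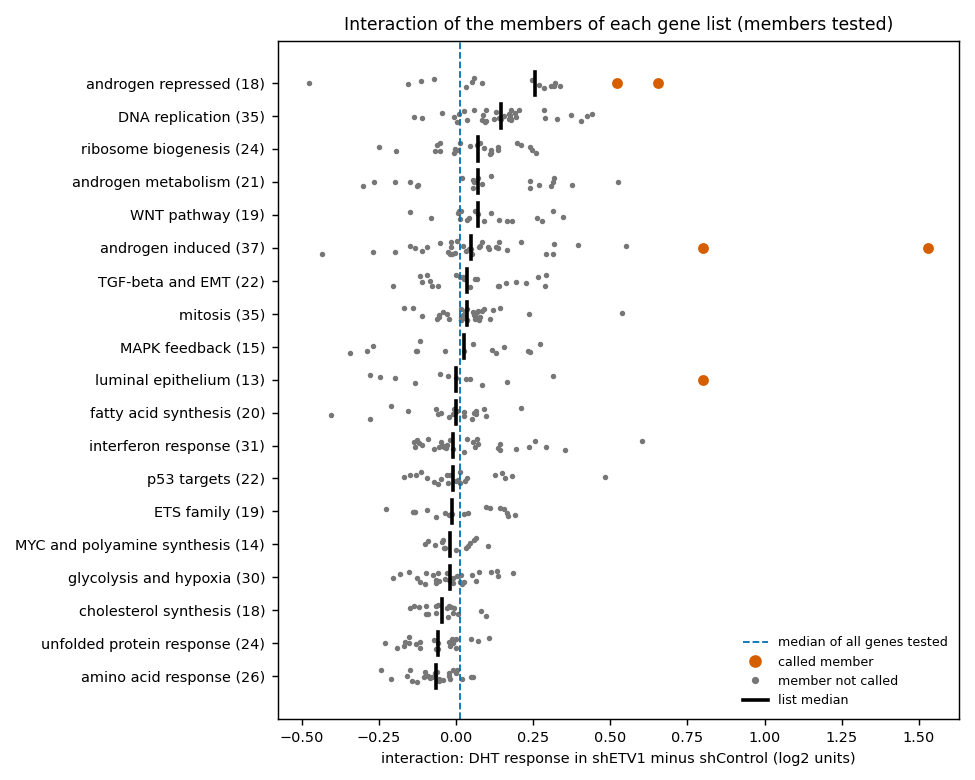
Interaction of every tested member (points) of 19 gene lists with at least 10 tested members, with the list median (bar), members that passed (large points) and the median of all genes tested (dashed line at 0.01). Androgen-repressed genes have the highest list median (0.26) and DNA replication genes the next (0.14); the large points are KLK2, KLK3, CAMK2N1 and ACKR3, with KLK3 also in the luminal list.

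Because the interaction contains the control response itself, androgen genes were also chosen in the other line of the series. The VCaP arrays are separate from the LNCaP arrays. Genes that DHT raised by at least 1 log2 unit in VCaP-siControl cells numbered 128, of which 116 were tested in LNCaP. Their median interaction in LNCaP was -0.10, with 28 above and 88 below 0, and 0 passed higher and 2 lower, ACAD8 and TNFRSF19. At an unadjusted p below 0.05 there were 6 higher and 19 lower. Genes that DHT lowered in VCaP numbered 270, of which 202 were tested. Their median was 0.10, with 149 above and 53 below 0, and CAMK2N1, COLEC12 and GPR158 passed higher and 0 lower. At an unadjusted p below 0.05, 53 were higher and 5 lower. Above 0 lay 24.1% of the raised and 73.8% of the lowered set, against 55.2% of all genes tested. Of all genes tested, 5.43% were higher and 2.09% lower at that p. The median LNCaP response to DHT was 0.83 in control and 0.73 in knockdown cells for the first set and -0.62 and -0.46 for the second. Both sets, chosen without the LNCaP arrays, had a slightly smaller median response in knockdown cells. Some members moved the other way in LNCaP, where the sign of the interaction reads differently. GPR158 of the lowered set rose with DHT in LNCaP, by 0.53 in control and 0.95 in knockdown cells, so its positive interaction is a larger rise. ST3GAL1 of the raised set fell, by -1.05 and -1.09. KLK2, KLK3 and CTBP1-AS were in neither set. Choosing at 0.5 log2 units moved the medians to -0.04 and 0.07. At that choice KLK3 entered the raised set, where it was the 1 member that passed higher, beside 2 lower. The lowered set then held 5 that passed higher and 0 lower.

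**Figure D4:**
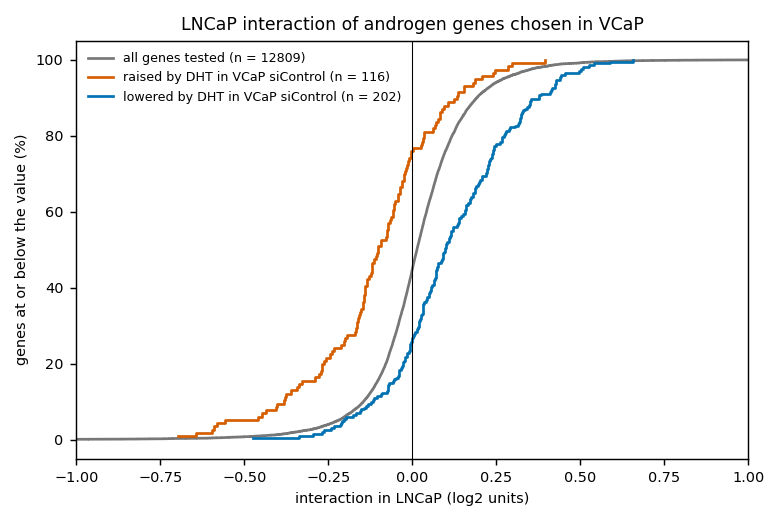
Cumulative share (percent) of genes by their LNCaP interaction (log2 units) for all 12809 genes tested, 116 genes that DHT raised and 202 that it lowered by at least 1 log2 unit in VCaP-siControl cells. The raised set lies to the left (median -0.10) and the lowered set to the right (median 0.10) of all genes (median 0.01).

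The same interaction in VCaP, where small interfering RNA lowered ERG, was set against that in LNCaP in a limma fit of all 24 arrays over 12293 genes. LNCaP and VCaP interactions differed for 35 genes that were higher (0.285%) and 13 that were lower (0.106%) in LNCaP; in VCaP 94 genes had an interaction of their own (0.765%). Of the 13 LNCaP genes, 8 differed between lines. KLK2 gave 1.53 in LNCaP and 0.05 in VCaP (difference 1.49 ± 0.18, adjusted p = 5.92e-04), in cells where VCaP means already stood at 5595 and 5120 with EtOH and 7150 and 6756 with DHT. KLK3 gave 0.80 and -0.07 (difference 0.87 ± 0.14, adjusted p = 0.00550), and CAMK2N1 0.66 and 0.06 (difference 0.60 ± 0.09, adjusted p = 0.00405). ACAD8 gave -0.46 and -0.02 (difference -0.44 ± 0.08, adjusted p = 0.0199). ANGPT2, ACKR3, GUSBP4 and LOC105376805 also differed. With each of the 24 arrays left out in turn, KLK2, KLK3, CAMK2N1, GUSBP4 and ANGPT2 differed in 24 of 24 fits and ACAD8 in 23, failing without shETV1 EtOH B (adjusted p = 0.0515). ACKR3 differed in 5 and LOC105376805 in 3, with adjusted p up to 0.0835 and 0.0924.

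COLEC12 had a like value in both lines, 0.41 in LNCaP and 0.31 in VCaP (difference 0.11 ± 0.10, adjusted p = 0.804), and TNFRSF19 gave -0.59 and -0.37 (difference -0.22 ± 0.12, adjusted p = 0.590). CTBP1-AS gave 0.75 and -0.04 and narrowly missed the threshold (adjusted p = 0.0503). GPR158 gave 0.43 and 0.18 (adjusted p = 0.732), although DHT raised it in LNCaP and VCaP control means fell from 1487 to 657.5. A p that misses the threshold does not show that the lines act alike. The lines also differ in the factor lowered and in the kind of RNA interference, and these cannot be told apart from the line.

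**Figure D5:**
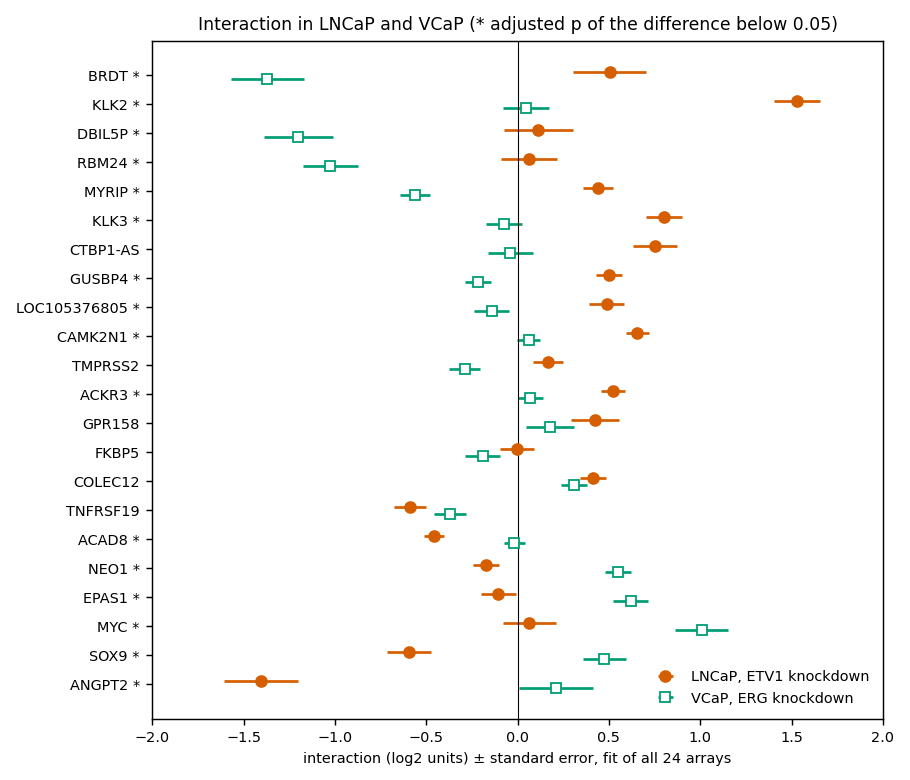
Interaction of knockdown and DHT (log2 units ± standard error, limma fit of 24 arrays, 3 per group) in LNCaP with ETV1 lowered (circles) and VCaP with ERG lowered (squares), ordered by the LNCaP minus VCaP difference, with a star where the difference passed. KLK2 (1.53 against 0.05) and ANGPT2 (-1.40 against 0.21) stand apart in LNCaP, while BRDT and MYC stand apart in VCaP; COLEC12 and TNFRSF19 lie on the same side in both lines.

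Promoter windows of 250 bases before to 50 after the start were held for 8 of the 13 genes and for 10382 of the genes tested. The ETS consensus CCGGAAGT was in 0 of the 8 windows and in 8.58% of all windows, on either strand. Its shorter form CCGGAA was in 0 of 8 and in 29.1%, and the core GGAA, which both contain, in 8 of 8 and in 95.1%. The single arm AGAACA was in 1 of 8, that of KLK3 shown above, and in 9.07% of all windows, and the full palindromic androgen response element, searched by its consensus letters, was in 0 of either set. These counts say only which letters lie in this window.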

How the data were processed

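The authors' deposited series matrix gave 1 processed intensity per probe set and array of the Affymetrix HG-U133 Plus 2.0 platform; the scan processing and array scaling behind it were not given in the sources used here. The 12 LNCaP arrays (3 in each of 4 groups) were used as deposited, and the 12 VCaP arrays for the comparison between lines. Values were taken as log2 of the intensity plus 16. Of 54675 probe sets, 41097 named 1 gene, 1801 several (left out), giving 19775 genes, for each of which the probe set of highest average intensity (24 arrays) was taken. A gene was tested if above the array median on at least 3 of the 12 LNCaP arrays. The interaction was estimated with limma 3.58.1 in R 4.3.3, in 1 fit of 4 groups, two-sided, with Benjamini-Hochberg adjustment over 12809 genes and a threshold of 0.05; "rose", "fell" and "passed" refer to it. Errors are limma's standard errors, except for differences in intensity, whose errors come from the group SDs. The number of arrays limits the precision. Named were the genes that passed (up to 15 a direction, filled to 10 by p), the best members of each list, the 5 highest and lowest line differences, and a few fixed androgen and ETS genes; further list members were picked after their values were seen. The part described, the genes and the lists were chosen with earlier results of these data known. The main fit held no replicate block. Arrays of the same replicate letter showed little correlation of residuals over genes (-0.22 to 0.12, 1 of 18 over 0.1). That cannot show that no gene shares an effect of the letter. The alternatives of the closing section were planned, except the linear scale, added after seeing the data. The fit was tested on simulated data.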

Additional observations from a re-analysis of the deposited data

Results flagged for a closer look

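Effects of knockdown on the hormone response that differed between LNCaP and VCaP were picked out by a test of the difference itself (limma, 24 arrays, Benjamini-Hochberg adjustment over 12293 genes), and the values below are LNCaP minus VCaP in log2 units.

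Among genes that passed in LNCaP, the differences were 1.49 for KLK2, 0.87 for KLK3, 0.72 for GUSBP4, 0.63 for LOC105376805 (adjusted p = 0.0488), 0.60 for CAMK2N1, 0.45 for ACKR3 (adjusted p = 0.0420), -0.44 for ACAD8 and -1.61 for ANGPT2 (adjusted p = 0.0150). All 8 had a VCaP interaction that did not pass, between -0.22 and 0.21.

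BRDT, a bromodomain protein of the testis, differed by 1.87 (LNCaP 0.50, VCaP -1.37). The pseudogene DBIL5P differed by 1.31 (past the threshold in 9 of 24 fits with 1 array left out), RBM24, an RNA-binding protein, by 1.09 (in 13 of 24) and MYRIP, a myosin and Rab adaptor, by 1.003 (LNCaP 0.44, adjusted p = 0.0258, and VCaP -0.56, adjusted p = 0.00157, in the fit of both lines). MYC differed by -0.94 (LNCaP 0.06, VCaP 1.01, adjusted p = 0.0488, up to 0.0924 with 1 array left out and past the threshold in 4 of 24 such fits), EPAS1, a hypoxia-inducible factor, by -0.72 and NEO1, a netrin receptor, by -0.72. SOX9, an epithelial transcription factor, differed by -1.07, with -0.60 in LNCaP (adjusted p = 0.0427 in that fit) and 0.47 in VCaP (adjusted p = 0.0676).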

How the results depend on the processing

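All 13 genes kept the sign of their interaction in each log2 setting in which they were tested, with 8 of them left once _x_at and _s_at probe sets were dropped and 13 elsewhere. The number that passed (13, 10 higher and 3 lower) was 7 (5 higher) with the average of all probe sets, 4 (3 and 1) without _x_at and _s_at probe sets, 5 (5 and 0) with no intensity filter and 20 (14 and 6) with the filter at the 60th percentile. It was 40 (28 and 12) with a trended and robust variance, 22 (16 and 6) with array weights, 4 (4 and 0) with the GAPDH ratio and 1 (1 and 0) with the ACTB ratio as a covariate, and 31 (19 and 12) when 24 arrays were fitted together; 7 were lower with an offset of 64 and 7 with quantile normalization. Of the 13, 12 passed with the trended variance, 11 in the 24-array fit, 13 with array weights and 6 with averaged probe sets. Counts ran from 7 to 12 (5 to 10 higher, 1 to 3 lower) with 1 array left out. With the replicate letter as a block 1 gene passed (1 higher and 0 lower), CAMK2N1. In 6 of 18 pairs an array's best match was its own letter, and whether the letters mark batches was not tested. Without a filter 0 genes were lower in limma, and 1299 genes had an unadjusted p below 0.05; that p was reached by 910 with the block, 787 with GAPDH and 870 with ACTB. The causes were not tested.

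Among the 13 genes, directions that turned on the linear scale of intensity, added after seeing the data, were KLK2 (-883), KLK3 (-1918), KLHL1 (-200.0), ACKR3 (-132) and TNFRSF19 (164). Values near 0 that changed sign were ETV1 (0.0024 with quantile normalization, 3.3e-04 with array weights, 0.0517 with ACTB, -0.0610 to 0.0625 with 1 array left out), FKBP5 (0.0316, 0.0379, 0.0767 and -0.0735 to 0.0807) and MYC (-0.0368 to 0.145 with 1 array left out).

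The median of genes raised in VCaP (-0.10) was -0.0580 with averaged probe sets, -0.0562 when _x_at and _s_at sets were dropped, -0.139 with centred arrays, -0.0398 at a choosing change of 0.5 and -0.118 to -0.0642 with 1 array left out; that of genes lowered (0.10) was 0.0597 with centred arrays, 0.123 with GAPDH, 0.0708 at 0.5 and 0.0724 to 0.118. Neither turned. Genes that differed between lines (48, 35 higher and 13 lower) numbered 25 (19 and 6) with averaged probe sets, 18 (12 and 6) when _x_at and _s_at sets were dropped, 21 (17 and 4) with no filter, 118 (75 and 43) with array weights, 28 (20 and 8) with the replicate block and 22 to 92 (16 to 51 and 5 to 41) with 1 array left out (22 without shETV1 EtOH B, 23 without shETV1 DHT B, 92 without VCaP siERG DHT C); with centred arrays 14 were higher. The line difference of KLHL1 turned to -0.191 with averaged probe sets and ran from -0.232 to 0.947 with 1 array left out, and that of ETV1 was -0.0287 with averaged probe sets, -0.0138 centred, -0.138 with array weights and -0.210 to 0.600.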

Other observations

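In gene groups outside the androgen, growth and secretory lists no member passed apart from KLK3 in the luminal list. Some members that did not pass had large values with wide errors. Among them were OAS2 of the interferon list at 0.60 ± 0.27, PLK2 of the p53 list at 0.48 ± 0.18 and COL1A2 of the fibroblast list at -0.55 ± 0.28. Of 19 WNT pathway genes 17 lay above 0 (89.5%, against 55.2% of all genes tested), with a median of 0.07 and 0 passing. AXIN1, a scaffold of the beta-catenin destruction complex, gave 0.28 ± 0.06 (adjusted p = 0.173) and LEF1, a transcription factor of the pathway, 0.35 ± 0.11. Of 22 genes of TGF-beta signalling and the mesenchymal state, 5 were higher and 0 lower at an unadjusted p below 0.05. That is 22.7% of the list, against 7.53% of all genes tested, and the median was 0.04 with 0 passing. FN1, fibronectin, came nearest at 0.29 ± 0.05 (adjusted p = 0.0893), with 2159, 2153 and 2108 in control EtOH, 1568, 1544 and 1536 in knockdown EtOH, 1085, 1070 and 1108 in control DHT, and 929, 974 and 987 in knockdown DHT arrays. The knockdown lowered it under both conditions, by less with DHT. The ETS family (19 tested, median -0.01), MAPK feedback genes (15, 0.03), interferon response genes (31, -0.01), p53 targets (22, -0.01), genes of glycolysis and hypoxia (30, -0.02) and MYC with polyamine synthesis (14, -0.02) had 0 members that passed. ETV4 and ETV5, the nearest relatives of ETV1, were too low to test, at 1.59 to 17.7 and 14.6 to 26.3 units. Of 13 luminal genes tested, 7 lay above and 6 below 0, the median was 0.0012, and KLK3 passed, higher. At an unadjusted p below 0.05 there were 1 higher and 3 lower, the latter being KRT8 and KRT18, luminal keratins that DHT raised, at -0.28 ± 0.07 and -0.20 ± 0.08, and ACP3, prostatic acid phosphatase, at -0.25 ± 0.07. Basal, neuroendocrine, fibroblast, endothelial and leukocyte lists had 4, 6, 6, 3 and 3 members tested, medians of -0.09, 0.07, -0.04, -0.34 and 0.08, and 0 that passed. VWF, an endothelial gene, gave -0.34 ± 0.12 (adjusted p = 0.539).

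Size and test did not go together. Of 14 genes with an interaction of at least 1 log2 unit either way, 2 passed, KLK2 and ANGPT2. MLN, the motilin gene, had the largest value at 1.55 ± 0.53 (adjusted p = 0.505), followed on the negative side by SNX33 at -1.35 ± 0.28 (adjusted p = 0.153) and TBKBP1 at -1.32 ± 0.39 (adjusted p = 0.373), and these were named for their size after their values were seen.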
